A study of Mus musculus with 30 samples.

Results

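The phase II conjugation enzymes examined here are 45 of the 41549 genes in the deposited table. They are the genes whose symbols begin with Gsta, Gstk, Gstm, Gsto, Gstp, Gstt, Gstz, Ugt1, Ugt2, Ugt3 or Sult and whose mean value reached 1 in at least 1 of 3 tissues. Of 64 genes with such names, 0 ended in -ps and 19 stayed under 1 in every tissue, 6 of them at 0 throughout. The 45 genes comprise 21 glutathione S-transferases (GST), 16 UDP-glucuronosyltransferases (UGT) and 8 sulfotransferases (SULT). Among the GST genes, 4 are of the alpha class, 7 mu, 3 pi, 3 theta, 2 omega, 1 zeta and 1 kappa. Just inside the threshold lay Sult4a1, with a mean of 1.01 in inguinal white adipose tissue (iWAT). Just outside it lay Ugt1a10 at 0.99 and Sult2a7 at 0.90 in liver.

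The libraries came from male mice on a C57Bl/6J background that were either wild-type (WT) or null for Lfabp (LFABP-/-), the gene Fabp1 of liver fatty acid-binding protein. Mice of both genotypes ate a high-fat diet, with 45% of energy as fat, for 12 weeks from 2 months of age, and were fasted for 4 h before tissue collection. Poly(A) RNA of liver, iWAT and the interscapular brown depot (iBAT) was sequenced from the same 10 mice, 5 per genotype, which gave 6 groups of 5 libraries. Diet and fast were thus shared by all 6 groups. Values are on the scale of TPM (transcript abundances scaled to a common total per library), so that levels of different genes can be compared per length, and all differences below are log2 differences of value + 0.5. Calls were made below an adjusted p of 0.1 (limma, two-sided, Benjamini-Hochberg over all genes tested in a tissue).

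Conjugation enzymes attach a polar group to drugs, hormones, bilirubin and products of lipid peroxidation, which makes them soluble and ready for export in bile or urine. GSTs use glutathione, UGTs use UDP-glucuronic acid made from UDP-glucose, and SULTs use the activated sulfate donor PAPS. The liver is the main site of all 3 reactions. The nuclear factor NRF2 drives many GST genes under oxidative or electrophilic stress, and the receptors CAR, PXR and AHR drive UGT, SULT and cytochrome P450 genes.

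Several libraries held transcripts that mark other tissues, whose source was not tested, and Fabp1 is given first. In liver, Fabp1 was at 9165.5 to 12697.6 in WT mice and at 0.2 to 51.8 in LFABP-/- mice. In iWAT, the library labelled LFABP-/- replicate 1 held Fabp1 at 196.1, against 0.2 to 0.9 in the other LFABP-/- libraries and 1.9 to 23.9 in WT. This is high for its label, while the liver labelled as the same mouse was at 51.8, and the cause was not tested. In iBAT, Fabp1 was at 0.2 to 8.7 in WT and at 0.4 to 21.2 in LFABP-/- mice, so the gene does not check the genotype there. Lymphocyte markers summed to 870.2 to 3219 in 5 iWAT libraries (WT replicates 3 and 4, LFABP-/- replicates 2, 3 and 4) and to 28.5 to 57.2 in the other 5. Skeletal muscle markers in iBAT summed to 288.9 to 43203. Each library had 16470 to 20502 genes above 0, and read depth is unknown. In bulk tissue, fewer cells of a type and less RNA per cell cannot be told apart.

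Some of these genes are near copies of each other, which bears on how reads could be assigned. Runs of 100 bases, the read length, were compared between the annotated transcripts of all genes (GENCODE, GRCm38). Of the 45 genes, 24 shared no such run with another gene and 7 shared at least 50% of their runs, namely Gsta1 (81.8%) and all 6 UGT1 genes. The UGT1 genes form 1 locus at chr1:88070830-88218421 with alternative first exons, and they have 4 coding exons of 735 bases in common at chr1:88215044-88218421 on the plus strand. Reads from those exons could not be given to a UGT1 gene by sequence, so the values of Ugt1a1, Ugt1a5, Ugt1a6a, Ugt1a6b, Ugt1a7c and Ugt1a9 are uncertain relative to each other. A gene model of Ugt1a7c had the same 1593 coding bases as Ugt1a6a. Another coding exon of Ugt1a7c, at chr1:88095121-88095978, was its own, and 52.8% of the runs of Ugt1a7c were shared with another gene. How reads were split between this pair is unknown, so their opposite differences between liver and iWAT (0.90 and -1.71) are uncertain. Gstp1 and Gstp2 lie side by side on chromosome 19, minus strand, at chr19:4035407-4037985 and chr19:4040285-4046023. Their coding sequences of 630 bases differed at 12 positions (98.1% identity), and 38.4% and 42.2% of their runs were shared with another gene. The start of both coding sequences (bases 1 to 60) is shown because these neighbours moved in opposite directions in iBAT. Capitals mark the 6 bases that differ.

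Gstp1: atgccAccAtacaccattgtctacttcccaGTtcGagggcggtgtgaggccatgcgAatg

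Gstp2: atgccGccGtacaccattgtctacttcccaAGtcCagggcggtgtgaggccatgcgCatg

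The UGT2 genes sit together on chromosome 5. Ugt2b5, which glucuronidates steroids, had the highest level of any UGT in liver, and Ugt2b36 the third highest. The 60 bases before the RefSeq start of both genes (GRCm38.p6, minus strand) are shown with those of 2 neighbours that were low in every tissue, Ugt2b37 and Ugt2b38. Capitals mark the run that each has in common with Ugt2b36.

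Ugt2b36, chr5:87092556-87092615: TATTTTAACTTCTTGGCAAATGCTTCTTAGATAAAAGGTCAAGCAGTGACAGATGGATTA

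Ugt2b5, chr5:87140341-87140400: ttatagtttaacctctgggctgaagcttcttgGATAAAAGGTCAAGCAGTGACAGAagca

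Ugt2b37, chr5:87254789-87254848: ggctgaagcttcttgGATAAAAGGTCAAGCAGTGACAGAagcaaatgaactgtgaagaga

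Ugt2b38, chr5:87424204-87424263: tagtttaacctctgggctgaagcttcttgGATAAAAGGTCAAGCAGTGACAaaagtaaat

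A run of 22 bases (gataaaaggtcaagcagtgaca) was present in these 4 genes and in no other of the 27025 genes with a promoter sequence. The mean level over the 10 liver libraries was 561.9 for Ugt2b5, 395.4 for Ugt2b36, 8.31 for Ugt2b38 and 2.1 for Ugt2b37. Coding sequences of Ugt2b5 and Ugt2b38 were 97% identical, and 24.7% and 24.2% of their runs were shared with another gene, so the split between them is uncertain.

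Promoters of 40 of the 45 genes were in the RefSeq table, and the 250 bases before each start were searched for short motifs, of which 3 are given. The antioxidant response element core TGACNNNGC, the site NRF2 binds, was found on either strand in 3 of 40 (Gsta3, Gstm5 and Gstm7) and in 11.5% of all promoters. The xenobiotic response element core GCGTG, bound by AHR, was in 8 of 40 and in 30.9% of all promoters. The letters TATAAA were on the sense strand in 4 of 40 and in 8.94% of all promoters. A match describes the letters in this window and not binding.

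In WT mice the 3 families together made up 0.850% of all transcripts in liver, 0.228% in iWAT and 0.0659% in iBAT. In liver the GST genes summed to 5086 ± 731, the UGT genes to 2557 ± 219 and the SULT genes to 859 ± 160 (SD, n = 5). In iWAT the sums were 1721 ± 237, 105 ± 19.1 and 457 ± 45.6, and in iBAT 621 ± 29, 3.66 ± 0.61 and 35.2 ± 4.42. UGT transcripts were thus scarce in WT brown fat. Gstp1, a pi-class GST, was the highest member in liver with a mean of 1947 over both genotypes, ahead of Gstm1, a mu-class GST, at 1187. Gsta3, which conjugates aflatoxin epoxide, followed at 573.7. In iWAT the order was Gstm1 (414.6), Sult1a1 (381.3), which sulfates phenols, and Gstz1 (308.7), the maleylacetoacetate isomerase of tyrosine breakdown. In iBAT it was Gstp1 (143.4), Gstm1 (115.3) and Gsta4 (64.58), which conjugates the lipid peroxidation product 4-hydroxynonenal.

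**Figure D1:**
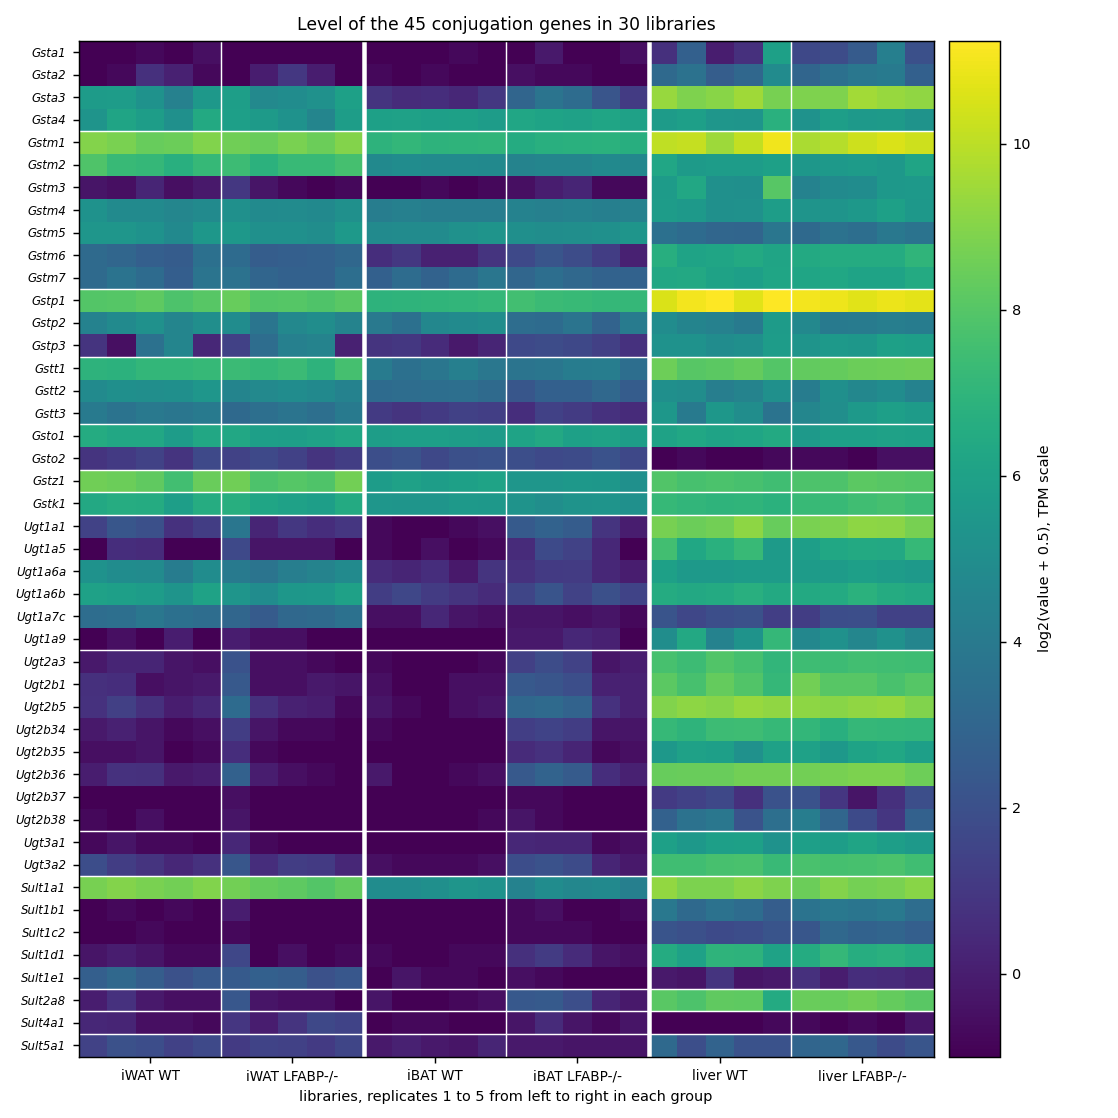
Level of the 45 genes (rows, grouped by enzyme class) in the 30 libraries (columns, replicates 1 to 5 in each group), as log2(value + 0.5) on the TPM scale. Most UGT2 rows (not Ugt2b37 and Ugt2b38), the UGT3 rows and Sult2a8 are high in liver and low in fat, where they are highest in the iBAT LFABP-/- libraries 1, 2 and 3 and the iWAT library labelled LFABP-/- replicate 1.

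Most members were higher in WT liver than in WT fat. Against iWAT, 33 of 45 were higher in liver, where 13.5% of all genes were, and 7 were lower, where 77.6% of all genes were (limma, with the 30 libraries in 1 fit and mice as random blocks). The median difference of the members was 2.86, against -1.18 over all genes. Ugt2b5 (8.50), Ugt2b36 (8.26) and Sult2a8 (7.85), a bile acid sulfotransferase, had the largest differences. Lower in liver than in iWAT were Sult1e1 (-2.602), the estrogen sulfotransferase, Gsto2 (-2.08), Gstm5 (-1.97), Ugt1a7c (-1.71), Gstm2 (-1.37), Sult4a1 (-0.72) and Gstz1 (-0.54). The 5 members not called were Gsta4, Gstp2, Gstt2, Gsto1 and Sult1a1. Sult1a1 was at 508 ± 72.5 in WT liver and at 447 ± 43.4 in WT iWAT (0.18, 95% interval -0.09 to 0.45).

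Against iBAT, 40 of 45 members were higher in liver, where 37.8% of all genes were, and 2 were lower, where 32.8% were. The median difference was 4.12 for the members and 0.08 for all genes. Ugt2b5 (9.71), Ugt1a1 (9.49), the bilirubin UGT, and Ugt2b36 (9.19) had the largest differences, and Gsta3, at 8.45, had the largest of the GST genes. Gsto2 (-2.85) and Gstm5 (-1.72) were lower in liver, and Gsta4, Gstp2 and Sult4a1 were not called.

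Between the fat depots, 25 of 45 members were lower in iBAT than in iWAT, where 83.8% of all genes were, and only Gsto2 was higher (0.77), where 7.13% of all genes were. Ugt1a6b (-4.77), Gsta3 (-4.67), Ugt1a6a (-4.42), Ugt1a7c (-3.80), Sult1a1 (-3.69) and Sult1e1 (-3.34) differed most. This split depends on the scaling, since the median of all genes was -1.32 between these depots. After median-ratio scaling that median was -0.13 and 9 members were higher and 15 lower, and after leaving out mitochondrial and the most abundant genes it was -0.52 and 7 were higher and 17 lower. The same 2 scalings moved the median of all genes between liver and iWAT to -0.08 and -1.15 and left 39 and 34 members higher in liver.

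The comparison of genotypes asked how conjugation genes of each tissue differ in fat-fed mice without LFABP. In liver, 3 of the 42 members tested were called. Gstk1, the mitochondrial and peroxisomal kappa-class GST, was at 145.5, 134.4, 123.0, 127.8 and 110.8 in WT replicates 1 to 5 and at 152.1, 150.2, 178.1, 197.2 and 168.4 in LFABP-/- replicates 1 to 5. The groups did not overlap, and the means were 128 ± 12.9 and 169 ± 19.5 (0.40, SE 0.10, adjusted p = 0.0365).

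Sult1c2, a phenol sulfotransferase, was at 4.1, 3.5, 2.9, 3.2 and 4.1 in WT and at 4.4, 8.4, 6.8, 7.5 and 6.0 in LFABP-/- liver. The lowest LFABP-/- value lay above the highest WT value, and the difference was 0.79 (SE 0.16, adjusted p = 0.0168). Gsto1, an omega-class GST that reduces dehydroascorbate and arsenic species, went the other way. Its values were 65.3, 77.7, 68.3, 72.4 and 87.5 in WT and 48.4, 60.4, 59.5, 64.1 and 60.9 in LFABP-/- mice, again without overlap. It fell by 0.34 on the log2 scale (SE 0.10, adjusted p = 0.0629), a call lost without WT replicate 2 (adjusted p = 0.154), LFABP-/- replicate 1 (0.119) or LFABP-/- replicate 5 (0.106).

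Thus 2 of 42 members rose and 1 fell, where 3.08% of all liver genes were higher and 13.9% lower. Groups did not overlap for these 3 of 42 members and for 10% of all genes. The median difference was 0.05 over the members tested and -0.10 over all genes. After median-ratio scaling the median of all genes was 0.00, with 5 members higher and 1 lower, and after leaving out mitochondrial and the most abundant genes 2 were higher and 0 lower (Gsto1 -0.30, adjusted p = 0.103). For the 3 called members the exact permutation p was 0.0079, the smallest that 5 against 5 libraries allow.

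**Figure D2:**
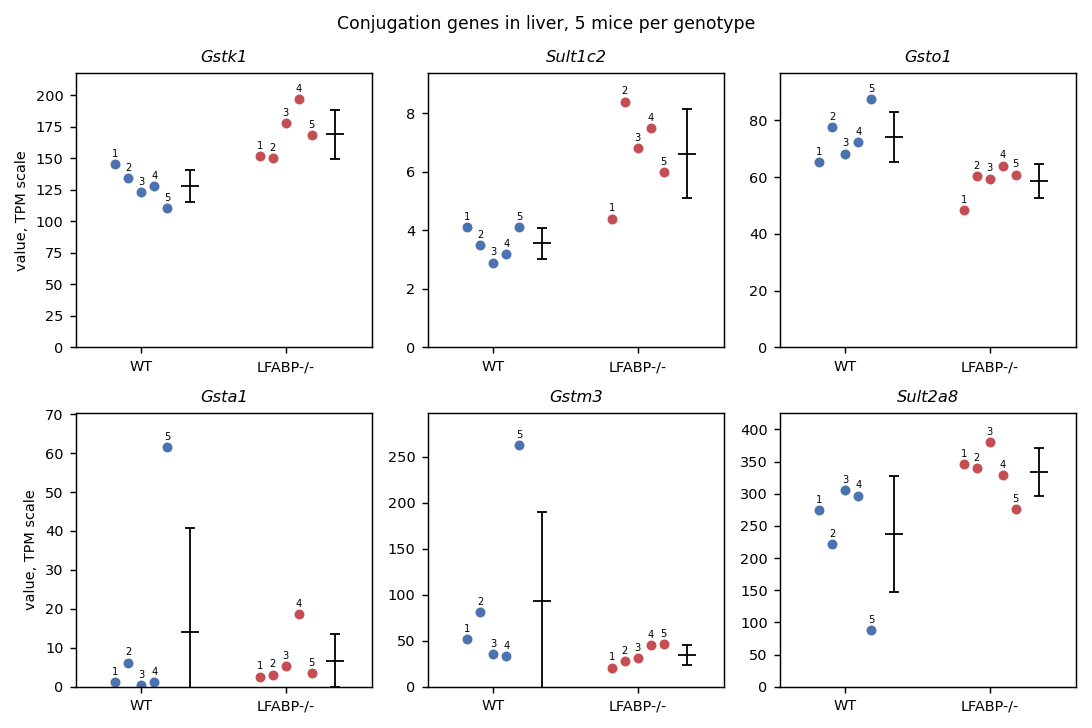
Values of 6 genes in the 10 liver libraries (TPM scale; points are mice labelled by replicate number, bars are mean ± SD). Gstk1, Sult1c2 and Gsto1 do not overlap between genotypes, while in Gsta1, Gstm3 and Sult2a8 the WT spread comes from replicate 5 (61.5, 262.8 and 87.6).

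Of the 16 UGT genes, 0 were called in liver by limma, and 1 was at an unadjusted p under 0.05. Over 22 alternatives, Ugt2b36 gained a call as higher in 2 (lowest limma adjusted p = 0.0371) and Ugt1a1 in 1 (0.09). Ugt2b5 was at 564 ± 63.6 in WT and 560 ± 52.9 in LFABP-/- liver (-0.01, 95% interval -0.23 to 0.21). Ugt1a1 was at 420 ± 92.8 and 492 ± 70.4 (0.24, -0.09 to 0.56), and Ugt2b36 at 366 ± 31.5 and 425 ± 36.5 (0.21, 0.02 to 0.41, adjusted p = 0.144). The sum of the UGT genes was 2557 ± 219 in WT and 2664 ± 168 in LFABP-/- liver. The highest GST members also stayed uncalled, with Gstp1 at 2019 ± 419 and 1876 ± 182 (-0.09, -0.40 to 0.23) and Gstm1 at 1219 ± 491 and 1155 ± 271 (-0.03, -0.58 to 0.53). For Gstm1 the interval thus still allows changes of over 0.5 in either direction.

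Replicate 5 of WT liver stood apart. Its macrophage markers summed to 1234.8, against 303.9 to 460.4 in the other WT livers, its stromal markers to 262.3 against 95.7 to 120.2 and its epithelial markers to 892.3 against 354.4 to 505.5, and their part in the values below was not tested. Of the 42 members, 9 had their highest value of the 10 liver libraries there and 13 their lowest, against 40.1% and 5.06% of all 11629 genes tested. Gsta1 was at 61.5 in this mouse and at 0.5 to 6.2 in the other WT mice, Gstm3 at 262.8 and 33.4 to 80.8, and Gsta2 at 29.9 and 5.7 to 11.9. Ugt1a9, which glucuronidates bulky phenols, was at 140.5 there and at 20.7 to 82.5 in the other WT mice. Conversely, Sult2a8 was at 87.6 and 222.3 to 305.2, Gstt3 at 12.3 and 15.6 to 44.2, and Ugt1a5 at 50.3 and 77.8 to 183.6. Of the GST genes, 8 of 20 (40%) were highest there, close to the share of all genes. UGT genes were lowest there in 6 of 16 and highest in 1. Among 20 tested NRF2 targets of other families, 10 were highest in this library and 0 lowest. Cbr3 was at 8 against 1.3 to 2.2 and Hmox1 at 73.9 against 16.4 to 31.8. Without this library 4 members were called, 3 higher and 1 lower.

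The supply of donors to these enzymes in liver was read from lists of the other genes of the pathway. Of all liver genes, 3.08% were higher and 13.9% lower. Of 5 genes of UDP-glucuronic acid supply, Ugp2, which makes UDP-glucose, rose from 188 ± 23 to 275 ± 22.3 (0.56, adjusted p = 0.0134) and 0 fell. Of 8 tested genes of sulfate donor supply, Papss1, a PAPS synthase, fell from 10.1 ± 2.12 to 4.12 ± 0.94 (-1.19, adjusted p = 0.0082) and 0 rose, while the more abundant Papss2 was at 93.5 and 87.1. Of 16 glutathione genes, Oplah, which opens oxoproline, fell from 78.5 to 60.9 and Ggt6 from 24.9 to 16, and 0 rose. Of 4 membrane glutathione transferases, Mgst1 rose from 1856 ± 133 to 2428 ± 421 and Ltc4s, the leukotriene C4 synthase, from 1.14 to 1.86. The list medians were 0.11, -0.01, -0.24 and 0.23, against -0.10 over all genes.

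Other conjugating enzymes of liver split, with 2 of 19 higher and 3 lower, where 3.08% of all genes were higher and 13.9% lower. Nnmt, which methylates nicotinamide, rose from 186 ± 29.7 to 300 ± 58.0 and Tpmt, thiopurine methyltransferase, from 18.2 to 24.6. Keg1 fell from 39.5 to 26.3 and Acsm5, an acyl-CoA synthetase of glycine conjugation, from 59.3 to 44.5. Of 20 NRF2 targets outside the families only Osgin1 was called, lower at 64.7 ± 15.8 and 21.8 ± 7.23 (-1.57, adjusted p = 0.0082). Of 14 CAR and PXR targets, 2 were higher and 3 lower. Cyp3a11, the main drug-metabolizing P450, fell from 242 ± 244 to 26.7 ± 9.10 (-2.71), with 660.7 in WT replicate 5. Por, which feeds electrons to P450 enzymes, fell from 408 ± 67.3 to 205 ± 55.0. Of 19 regulators, Esrra rose from 33.1 to 51.8, and 5 fell, among them Bach1, a repressor of NRF2 targets (24.9 to 17.1), and Arnt, the AHR partner (11.7 to 9.58). Of 3 AHR targets, Tiparp rose from 3.16 to 5.04. Of 8 transporters of conjugates, Abcg2 rose from 13.3 to 18 and Abcc2, the canalicular conjugate pump, fell from 144 to 109.

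In iBAT, 21 of the 27 members tested were called, 14 higher and 7 lower in LFABP-/- mice, where 22.3% of all genes were higher and 25.5% lower. Of the 27, 8 had a WT mean under 1 and passed the filter on low values only through the LFABP-/- group, and 7 of these 8 were called higher. Among the 19 members with a WT mean of at least 1, 7 were higher, 7 lower and 5 not called. The remaining 18 of 45 members were too low to test. Groups did not overlap in 13 of the 27, and in 26.4% of all genes. Of these 13, 7 were GST genes with a WT mean of at least 1. The others were 5 UGT genes and Sult2a8, at WT means of 0.08 to 0.18, which passed the filter only through the LFABP-/- group.

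The members that rose most are those that were high in liver and nearly absent from WT brown fat. Ugt2b5 was at 0.3, 0.1, 0.0, 0.2 and 0.3 in WT and at 7.9, 9.0, 7.0, 1.2 and 0.6 in LFABP-/- iBAT (2.60, SE 0.59, adjusted p = 0.00655). Ugt1a1 was at 0.1, 0.0, 0.0, 0.1 and 0.2 in WT and at 5.1, 6.6, 5.5, 1.3 and 0.5 in LFABP-/- iBAT (2.55, SE 0.51, adjusted p = 0.00351). The first 3 LFABP-/- libraries carried most of both. Ugt2b36 (2.40), Ugt2b1 (2.09), Sult2a8 (2.09) and Ugt3a2 (1.82) were likewise highest in those 3 libraries. Gsta3 was at 1.3, 0.9, 1.0, 0.8 and 1.5 in WT and at 7.5, 12.7, 9.6, 4.2 and 1.7 in LFABP-/- mice (2.03, SE 0.42, adjusted p = 0.00429). The sum of the UGT genes was 3.66 ± 0.61 in WT and 27.9 ± 17.7 in LFABP-/- iBAT, and 2557 in WT liver.

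Markers of hepatocytes moved with these members. Of 19 tested hepatocyte markers 16 were higher and 0 lower in LFABP-/- iBAT (median 3.99, against -0.03 over all genes), and the mean log2 value of the list was 1.04 to 3.10 in WT and 3.60 to 6.497 in LFABP-/- libraries. Alb, serum albumin, was at 36.0, 1.9, 2.1, 23.5 and 49.6 in WT and at 637.9, 914.5, 863.9, 152.2 and 95.2 in LFABP-/- iBAT. As a median share of their WT liver level, hepatocyte markers stood at 1.16%, 1.64%, 1.40%, 0.265% and 0.169% in LFABP-/- libraries 1 to 5. The 16 members with a WT liver mean of at least 20 and a WT iBAT mean under 1 stood at 1.37%, 1.78%, 1.31%, 0.284% and 0.205% in the same libraries. In WT iBAT the shares were 0.00394% to 0.0881% for the markers and 0% to 0.0746% for the members. For the members, low shares in WT iBAT follow from their choice by a WT iBAT mean under 1. Fabp1 itself was at 0.00341%, 0.0170%, 0.181%, 0.128% and 0.112% of WT liver in the LFABP-/- iBAT libraries. Liver RNA and expression by brown fat cannot be told apart in these values.

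**Figure D3:**
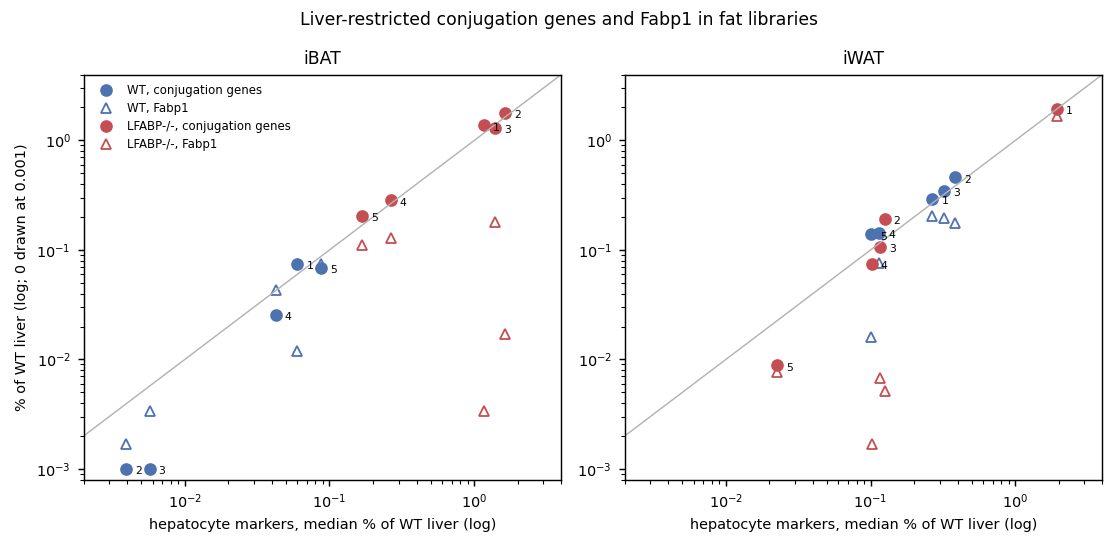
Median level of 16 members (circles) and of Fabp1 (triangles) in each fat library, against the median of 20 hepatocyte markers, as % of WT liver. The 16 had a WT liver mean of at least 20 and a WT iBAT mean under 1. They include Ugt1a6a, at 28.7 in WT iWAT, so the name liver-restricted in the title does not hold for all in iWAT. Both axes are logarithmic, numbers are replicates, the line marks equal shares and a share of 0 is drawn at the foot. Most circles lie near the line, apart from iBAT WT 2 and 3 at 0 and iWAT LFABP-/- 5. Fabp1 falls farthest below the line in LFABP-/- iBAT libraries 1 to 3, LFABP-/- iWAT libraries 2 to 5, iWAT WT 5 and iBAT WT 1.

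With the hepatocyte marker level as a covariate, 1 of 27 members remained called in iBAT, and 5.46% of all genes. This was Gstz1, lower in LFABP-/- mice by -0.74 (adjusted p = 0.0624). The covariate is itself higher in every LFABP-/- library than in any WT library, so that it takes up much of the genotype difference. Without LFABP-/- libraries 1 to 3, 20 members could be tested, with Gsta3 higher (1.03) and 5 lower. With the skeletal muscle marker level as a covariate, 19 were called, 12 higher and 7 lower.

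Members with a clear WT level gave smaller differences. Gstz1 was at 53.7, 63, 56.5, 62.3 and 69.1 in WT and at 42.5, 42.3, 45.1, 44.3 and 34.7 in LFABP-/- iBAT, with no overlap. It fell by 0.54 on the log2 scale (60.9 ± 6.02 to 41.8 ± 4.13, SE 0.089, adjusted p = 0.00137). Over its alternatives the adjusted p ran from 0.000257 to 0.0624, and without LFABP-/- libraries 1 to 3 the difference was -0.62 (adjusted p = 0.0244). Gstz1 was at 212 ± 23.1 in WT liver.

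Gstm1 was at 119.1, 136.7, 121.1, 126.2 and 129.5 in WT and at 93.5, 105.0, 108.3, 110.6 and 102.8 in LFABP-/- iBAT (-0.28, SE 0.06, adjusted p = 0.00495). Gstt2, a theta-class GST, was at 9.2, 10, 10.4, 10.7 and 9.0 in WT and at 4.3, 6.2, 6.3, 8.3 and 5.5 in LFABP-/- mice (-0.67, SE 0.14, adjusted p = 0.00408). Both fell without overlap of the groups, and both stayed called without LFABP-/- libraries 1 to 3 (-0.24 and -0.51). Sult1a1 fell from 34.4 ± 4.49 to 24.8 ± 4.70 (-0.48, adjusted p = 0.0181), with 1 LFABP-/- library, replicate 2 at 30.9, above the lowest 2 WT values of 30 and 30.8. Gstk1 fell from 43.8 ± 3.30 to 37.2 ± 2.89 (-0.23) and Gstm2 from 28.5 ± 1.46 to 24.2 ± 2.47 (-0.24), while Gstk1 rose in liver.

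The pi-class neighbours went apart. Gstp1 was at 120.4, 124.0, 127.7, 132.6 and 140.4 in WT and at 186.7, 163.9, 152.6, 142.2 and 143.9 in LFABP-/- iBAT, all above WT (0.28, SE 0.08, adjusted p = 0.0182). Gstp2 was at 14.7, 11, 25.0, 28.7 and 31.9 in WT and at 9.9, 9.1, 12.8, 6.9 and 16.4 in LFABP-/- mice, which overlap (-0.93, SE 0.32, adjusted p = 0.0381). Given the shared coding sequence shown above, the split of reads between them is uncertain. Gstp1 is abundant in liver (2019 ± 419), where Gstp2 was at 28.2 ± 14.5.

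Smaller rises were called for Gsta4 (60.3 ± 3.43 to 68.8 ± 5.26, 0.19), Gstm4 (18.2 ± 0.83 to 20.2 ± 0.76, 0.15) and Gsto1 (56.4 ± 3.60 to 67.3 ± 9.98, 0.24). None of these 3 passed after leaving out mitochondrial and the most abundant genes (adjusted p = 0.174, 0.244 and 0.140). Gsto1 lost its call when any 1 of 6 libraries was left out, namely WT replicate 1, 4 or 5 and LFABP-/- replicate 1, 2 or 4 (adjusted p 0.103 to 0.132). Gstm6 rose from 1.00 ± 0.41 to 2.5 ± 1.36 (0.89) and also lost it when WT replicate 1, 3 or 4 was left out, as it did for LFABP-/- replicate 1, 2 or 3 (adjusted p 0.113 to 0.163). Gstp3 (0.96 ± 0.44 to 2.34 ± 0.75, 0.97) and Ugt1a6b (1.64 ± 0.60 to 2.90 ± 0.85, 0.68) also rose.

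**Figure D4:**
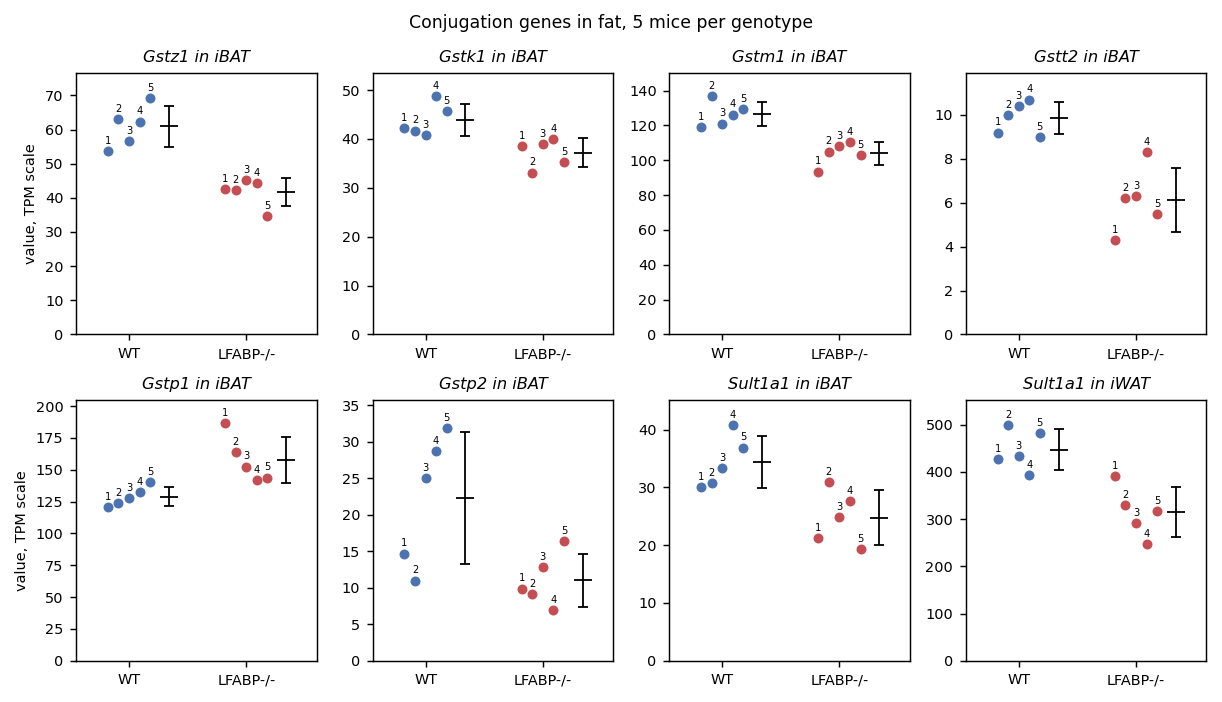
Values of 7 conjugation genes in iBAT and of Sult1a1 in iWAT in 10 libraries each (TPM scale; points are mice labelled by replicate number, bars are mean ± SD). Gstz1, Gstk1, Gstm1 and Gstt2 are lower in LFABP-/- iBAT without overlap, Gstp1 is higher, and Sult1a1 values lie lower in both depots, with a call in iBAT and none in iWAT.

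Related genes in iBAT were counted in the same lists, beside 22.3% of all genes higher and 25.5% lower. Of 22 NRF2 targets outside the families, 15 were higher and 2 lower (median 0.53). Akr1b8, an aldo-keto reductase, rose from 13.3 ± 2.80 to 31.4 ± 3.39, Cbr3, a carbonyl reductase, from 3.50 ± 0.38 to 17.8 ± 8.86, Pgd from 86.5 to 162 and G6pdx from 102 to 181. The last pair make NADPH. With the hepatocyte covariate 2 of the 22 stayed higher, and without LFABP-/- libraries 1 to 3, 9 were higher and 3 lower. Nqo1, a target of NRF2 and AHR, was at 2.30 and 2.12 (-0.01, adjusted p = 0.986). Bach1, which represses such genes, fell from 8.46 ± 0.52 to 4.98 ± 0.71 (-0.72) and its partner gene Maff rose from 4.82 to 10.3, as 2 of 15 tested regulators, of which 3 rose and 4 fell.

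Of 7 tested genes of sulfate donor supply, 4 fell and 0 rose (median -0.27). Suox, the sulfite oxidase, fell from 40.7 ± 6.15 to 26.5 ± 2.99, the PAPS transporter gene Slc35b2 from 16.9 to 12.8 and Papss2 from 7.34 to 5.5. Of 14 glutathione genes, 3 rose and 5 fell, where 22.3% of all genes rose and 25.5% fell. Gpx3, the plasma glutathione peroxidase, fell from 1497 ± 241 to 425 ± 110, Gclc, the rate-limiting enzyme of glutathione synthesis, from 9.62 to 7.74, and Slc3a2, a subunit of the cystine importer, rose from 21.9 ± 3.93 to 83.1 ± 36.7. Of 6 membrane glutathione transferases, Mgst2, Mgst1 and Ltc4s rose (1.74 to 3.96, 227 to 292 and 22.2 to 33.3), and of 5 genes of UDP-glucuronic acid supply only Slc35b1 rose. Of 7 CAR and PXR targets 4 rose and 1 fell. Alas1, the first enzyme of heme synthesis, rose from 45.1 to 269, and Cyp2b10 fell from 48.9 ± 35.8 to 2.82 ± 1.93. Of 15 other conjugating enzymes, 5 rose and 6 fell, among them Nat1, an arylamine acetyltransferase, which fell from 1.98 to 0.40. Of 6 transporters of conjugates 3 rose, the efflux pumps Abcc5 (5.84 to 7.08) and Abcg2 (2.30 to 3.42) and the hepatocyte uptake carrier Slco1b2 (0.12 to 3.34), and of 5 AHR targets 2 rose and 1 fell. With the hepatocyte covariate, the calls left were 1 lower in sulfate supply, 1 lower among glutathione genes, 0 among membrane glutathione transferases and 1 higher among CAR and PXR targets. Without LFABP-/- libraries 1 to 3 they were 4 lower in sulfate supply, 1 higher and 4 lower among glutathione genes, 0 among membrane glutathione transferases and 1 higher and 1 lower among CAR and PXR targets.

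In iWAT, 0 of the 29 members tested were called by limma, where 1.45% of all genes were, and 4 were at an unadjusted p under 0.05. With array weights 20 of 29 were called, 2 higher and 18 lower, and so were 62.4% of all genes. The median difference was -0.14, against 0.05 over all genes, and 10 of 29 differences were above 0. Sult1a1 came closest. It was at 427.4, 499.8, 433.7, 393.0 and 482.6 in WT and at 391.0, 329.4, 291.7, 247.2 and 317.7 in LFABP-/- iWAT. The highest LFABP-/- value, from the library labelled LFABP-/- replicate 1, lay just below the lowest WT value, and Sult1a1 was the only member without overlap, as were 3.11% of all genes. The means were 447 ± 43.4 and 315 ± 52.7 (-0.51, SE 0.13, adjusted p = 0.129, exact permutation p = 0.0079). Without the library labelled LFABP-/- replicate 1 the adjusted p was 0.0931, without WT replicate 4 it was 0.0990, and with the lymphocyte marker level as a covariate it was 0.0380. Over all alternatives it ran from 0.00202 to 0.381.

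The other 3 with an unadjusted p under 0.05 were Sult4a1, Gstt2 and Ugt1a6a. Sult4a1, an orphan sulfotransferase, was at 0.8, 0.7, 0.2, 0.2 and 0.1 in WT and at 1.4, 0.5, 1.3, 2.6 and 2.3 in LFABP-/- iWAT (1.203, adjusted p = 0.218), values near the floor of the table. Gstt2 was at 34.2 ± 5.21 and 25.7 ± 4.02 (-0.41, adjusted p = 0.267), and Ugt1a6a, a phenol UGT, at 28.7 ± 7.30 and 19.6 ± 6.13 (-0.55, adjusted p = 0.475).

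Values of Gstp3 and some other members split with the lymphocyte content of the iWAT libraries. Gstp3 was at 11.3 and 23.3 in the 2 WT libraries with high lymphocyte markers and at 0.2 to 1.3 in the other 3. In LFABP-/- iWAT it was at 9.8, 19.5 and 21.9 in the 3 such libraries and at 2.1 and 0.6 in the other 2. Gsta2 was likewise higher in the 5 libraries with high lymphocyte markers (0.5 to 1.5) than in the other 5 (0 to 0.1), values near the floor of the table. Gsta3 (20.3 to 37.7 against 45.4 to 62.7) and Gstz1 (186.5 to 303.4 against 348 to 402.7) were lower in the former. So were Gstm5 (28 to 37.9 against 43 to 49.1) and Gstm6 (5.5 to 6.5 against 7.6 to 10.8). The share of all iWAT genes that split in this way was not counted, so the split cannot be called particular to these enzymes. The part of lymphocytes in these values was not tested. The library labelled LFABP-/- replicate 1 also held members that were high in liver, with Ugt1a1 at 13.3, Ugt2b5 at 9.1, Ugt2b36 at 6.4 and Sult2a8 at 4.5. Over the other 4 LFABP-/- libraries these were at 0.7 to 1.5, 0.1 to 1.1, 0.0 to 0.5 and 0.0 to 0.3. Hepatocyte markers in it stood at 1.94%, the 16 members chosen by their WT liver and WT iBAT levels at 1.95% and Fabp1 at 1.67% of WT liver. Those 16 include Ugt1a6a and Gstp3, with means of 28.7 and 7.38 in WT iWAT.

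Lists of related genes in iWAT held few calls, where 1.45% of all genes were called. Of 18 glutathione genes Slc3a2 rose (123 ± 6.399 to 179 ± 17.8) and Gpx3 fell (659 ± 92.6 to 369 ± 76.9), as both also did in iBAT. Esrra (33.7 to 105) and Maff (10 to 23.4) rose among 16 regulators, and Acsm5 fell (11.6 to 5.80) among 14 other conjugating enzymes. Of 23 NRF2 targets, 7 genes of sulfate supply, 5 of UDP-glucuronic acid supply, 6 membrane glutathione transferases, 6 AHR targets, 5 CAR and PXR targets and 7 transporters of conjugates, 0 were called by limma.

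Whether the genotype difference itself differed between tissues was tested with an interaction in the fit of all 30 libraries, which share the same mice. Between iBAT and liver it differed for 14 of 45 members, 11 higher and 3 lower in iBAT, and for 15.1% of all genes. The 3 lower were Gstz1 (-0.79, adjusted p = 0.0264), Gstk1 (-0.63, adjusted p = 0.0294) and Sult1c2 (-0.63, adjusted p = 0.0238). Sult1c2 was at 0.0 to 0.1 in all iBAT libraries, so its value restates its liver difference. For Gstk1 the difference was -0.23 in iBAT and 0.40 in liver, and for Gstz1 it was -0.54 and 0.25. Gsto1 showed the reverse, with 0.24 in iBAT and -0.34 in liver (0.58, adjusted p = 0.0267). The other 10 higher members were Gsta3, Gstm3 and 8 UGT genes. Among them, Gstm3 and Ugt1a9 were at only 0.0 to 0.7 and 0.0 to 0.8 in iBAT. In liver WT replicate 5 these genes were at 262.8 and 140.5. Ugt2a3 and Ugt2b34 also had means under 1 in iBAT (0.83 and 0.67). Without WT mouse replicate 5 the count was 14. Without LFABP-/- mouse replicate 2 the count was 8, with 5 higher and 3 lower.

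Between iWAT and iBAT the difference was tested lower in iWAT for 11 of 45 members and higher for 0, and for 11.2% of all genes it differed. These were Gsta3, Sult2a8 and 9 UGT genes, led by Ugt1a1 (-2.77), Ugt2b5 (-2.57) and Ugt2b36 (-2.55). Genes entered this fit by a mean of at least 1 in any tissue. Ugt2a3 (0.66 in iWAT and 0.83 in iBAT), Ugt2b34 (0.39 and 0.67) and Ugt2b35 (0.19 and 0.31) were under 1 in both depots. Ugt2b1 (0.89) and Sult2a8 (0.77) were under 1 in iWAT. Their differences thus lie near the floor of the values and depend on the pseudocount. Without WT mouse replicate 2 or LFABP-/- mouse replicate 3 the count was 3. It was 4 without LFABP-/- mouse replicate 2, 5 without WT mouse replicate 3 and 7 without WT mouse replicate 1. Between iWAT and liver only Sult1c2 differed (-0.79, adjusted p = 0.0235), where 3.54% of all genes did. The gene was at 0.0 to 0.1 in all iWAT libraries, so this value restates its liver difference.

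**Figure D5:**
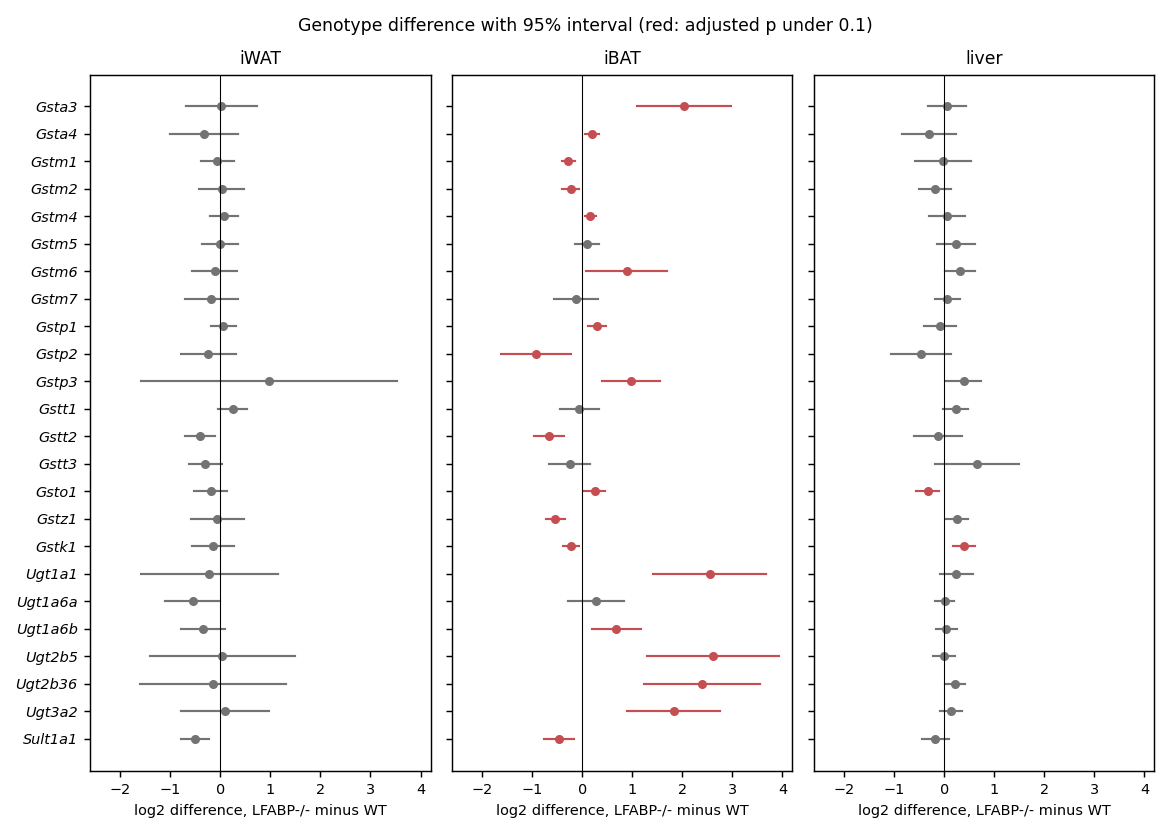
Genotype difference (LFABP-/- minus WT, log2) with its 95% interval for the 24 members tested in all 3 tissues; red marks an adjusted p under 0.1. In iBAT, Ugt1a1, Ugt2b5, Ugt2b36, Ugt3a2 and Gsta3 lie farthest to the right, Gstk1 and Gsto1 lie on opposite sides of 0 in iBAT and liver, and in iWAT no interval is red.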

How the data were processed

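Poly(A) RNA of 30 libraries was sequenced (100-base single reads) and mapped by the authors with CLC Genomics Workbench to GRCm38 with Ensembl annotation. The deposited values are headed RPKM, but each column sums to 999967.3 to 999996.4, so they were treated as TPM. They carry 1 decimal and no counts, so depth is unknown and precision rests on the 5 mice per group. The table pools no replicates, and 0 value columns were left unused.

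Analysis was on log2(value + 0.5), in R 4.3.3 by limma 3.58.1 (mean of at least 1 over the 10 libraries of a tissue, intensity trend, two-sided, Benjamini-Hochberg, adjusted p under 0.1). Tissues were compared in 1 fit of all groups with the mouse as a random block (consensus correlation -0.0151, 15564 genes), since labels tie a mouse to its 3 tissues. Replicate numbers of the 2 genotypes mark different mice and were not used as pairs. Both fits were tested on simulated data. Members and gene lists were chosen with earlier results of these data known.

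Genes are named by rule: every called member, the 10 highest members of each tissue, the 5 smallest p for each difference between tissues, the highest member of each enzyme class, members with near-identical copies, up to 4 genes per list and tissue, and Fabp1. Members outside this rule, such as those in the account of liver WT replicate 5, were named after their values were seen. Other lists counted were adipocyte, brown adipocyte, stromal, endothelial, epithelial, macrophage and erythrocyte markers and sex-biased liver genes. Of 292 list symbols 1 was not found. Protein sequences were not used here. Figures were drawn with matplotlib 3.10.9 in Python 3.11.15. A regulator gene and a motif search are not reported here.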

Additional observations from a re-analysis of the deposited data

Results flagged for a closer look

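A library counted as far from its group of 5 when gap over range passed 0.71, the 95% critical value of Dixon's test. This held in 7 of 104 groups. The members looked at were not all chosen by rule. Gsta1, Gsta2, Gsta4 and Gstm3 in liver were named after their values were seen. The count of 7 therefore cannot be compared with a chance rate. WT liver replicate 5 accounted for 4 of these 7 groups, with Gsta1 at 61.5, Gsta2 at 29.9, Gsta4 at 109 and Gstm3 at 262.8. The others were Gsta1 at 18.7 in liver LFABP-/- replicate 4, Gstm4 at 19.6 in iBAT WT replicate 2 and Gstz1 at 34.7 in iBAT LFABP-/- replicate 5.

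The genotype difference differed between tissues (interaction, limma, adjusted p under 0.1) for the following members. Between iWAT and liver this was Sult1c2 (-0.79). Between iBAT and liver it was larger for Gsta3 (1.97), Gstm3 (1.56), Gsto1 (0.58), Ugt1a1 (2.31), Ugt1a9 (1.64), Ugt2a3 (1.81), Ugt2b1 (1.85), Ugt2b5 (2.61), Ugt2b34 (1.825), Ugt2b36 (2.18) and Ugt3a2 (1.69). It was smaller for Gstz1 (-0.79), Gstk1 (-0.63) and Sult1c2 (-0.63), a gene at 0.0 to 0.1 in all iBAT libraries. Between iWAT and iBAT it was smaller for Gsta3 (-2.01), Ugt1a1 (-2.77), Ugt1a6b (-1.03), Ugt2a3 (-1.79), Ugt2b1 (-1.96), Ugt2b5 (-2.565), Ugt2b34 (-1.61), Ugt2b35 (-1.065), Ugt2b36 (-2.547), Ugt3a2 (-1.73) and Sult2a8 (-2.01). Of these members, Ugt2a3, Ugt2b34 and Ugt2b35 had means under 1 in both fat depots. Beside the UGT, Gsta3 and Sult2a8 values stand the hepatocyte markers of LFABP-/- iBAT, whose part was not tested across tissues.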

How the results depend on the processing

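Of the members named in a tissue, 1004 values kept direction and call over the alternatives, 57 lost the call, 19 gained it and 39 changed sign. Of these 39, 33 were members not called in the first place. The 6 called members were in iBAT with the hepatocyte covariate: Gstm6 -0.43, Ugt2b1 -0.0285, Ugt2b5 -0.11, Ugt2b36 -0.035, Ugt3a2 -0.0047 and Sult2a8 -0.225. Uncalled members in iWAT turned to -0.0157 (Gstm2) after median-ratio scaling, -0.0172 (Gstm2) without the most abundant genes, and -0.0743 (Gstp1) and -0.0666 (Gstm2) with array weights. With the lymphocyte covariate Gstm1 turned to 0.0138 and Gstz1 to 0.111, with the muscle covariate Gstz1 to 0.00272, and without the 5 libraries high in lymphocyte markers Gstz1 to 0.132 and Gstk1 to 0.0507. Uncalled members in liver turned to 0.0317 (Gstp1), 0.0905 (Gstm1) and 0.11 (Ugt2b5) after median-ratio scaling, 0.00618 (Gstm1) and 0.0261 (Ugt2b5) without the most abundant genes, and 0.17 (Gstm1), -0.0139 (Gsta3) and 0.0479 (Ugt2b5) with array weights. Over single libraries left out, iWAT values ran from -0.2414 to 0.0263 (Gstz1), -0.0246 to 0.1021 (Gstp1) and -0.1046 to 0.1798 (Gstm2), and liver values from -0.2021 to 0.1795 (Gstm1), -0.0365 to 0.1536 (Gsta3) and -0.0556 to 0.0469 (Ugt2b5). In iWAT (0 called), 20 were called with array weights, 2 in the fit of 30 libraries and 3 with the lymphocyte covariate, where 62.4%, 6.1% and 8.41% of all genes were. Leaving out single libraries gave 0 to 1, with 1 without WT replicate 4 or LFABP-/- replicate 1. In iBAT (21 called), 8 were called at a mean of at least 20, 1 with the hepatocyte covariate and 6 without LFABP-/- libraries 1 to 3, where 48.2%, 5.46% and 24.8% of all genes were, with 18 to 21 over single libraries left out. In liver (3 called), 6 were called after median-ratio scaling and 5 with array weights, where 17.2% and 18.2% of all genes were, with 2 to 6 over single libraries left out (6 without WT replicate 1). For differences between tissues, iWAT against liver (1) gave 0 at pseudocount 0.1 and 0 at a mean of at least 20, with 1 to 2 over single mice left out. Over single mice left out, the count for iBAT against liver (14) ranged from 8 to 16. It was 17 after median-ratio scaling, 19 without mitochondrial and the most abundant genes and 11 at an adjusted p under 0.05. The count for iWAT against iBAT (11) was 7 at pseudocount 1, 7 at an adjusted p under 0.05 and 15 after median-ratio scaling. Over single mice left out it ranged from 3 to 14. Over single mice left out, tissue counts in WT ran from 39 to 41 (liver and iWAT), stayed at 42 (liver and iBAT) and ran from 22 to 26 (iBAT and iWAT). After median-ratio scaling these 3 counts were 43, 41 and 24. Without mitochondrial and the most abundant genes they were 41, 43 and 24. At pseudocount 0.1 the count between iBAT and iWAT was 33. The cause was not tested. The hepatocyte and lymphocyte covariates and left-out libraries were chosen after seeing the data.

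With the replicate number as a block, 1 member was called in iWAT (Sult1a1, adjusted p = 0.0988), 21 in iBAT and 3 in liver. Deviations of same-numbered libraries of both genotypes correlated at -0.334 to 0.669 in iWAT, -0.53 to 0.511 in iBAT and -0.0614 to 0.127 in liver, so the numbers were not taken as pairs. Without the mouse block, the counts between tissues were 1, 14, 12, 40, 42 and 26. Values carry 1 decimal, so differences of members under 1 rest on few steps, and depth is unknown.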

Other observations

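Genes of sex-biased liver expression, which growth hormone patterns set, were counted beside the conjugation enzymes. In liver, 1 of 20 male-biased genes rose and 2 fell, and 1 of 10 tested female-biased genes rose and 3 fell. Of all liver genes, 3.08% rose and 13.9% fell. Cyp2a4, a female-biased steroid hydroxylase, was at 4.80 ± 9.51 in WT and 181 ± 132 in LFABP-/- liver (6.18, limma adjusted p = 0.00967), and Cyp17a1 fell from 105 ± 27.2 to 52.6 ± 12.3. In LFABP-/- iBAT, 10 of 13 male-biased genes rose and 1 fell, and 1 of 5 female-biased genes rose and 1 fell. Of all iBAT genes, 22.3% rose and 25.5% fell. With the hepatocyte covariate 0 of the 13 male-biased genes were called, where 5.46% of all genes were. Without LFABP-/- libraries 1 to 3, 2 of 9 rose and 1 fell, where 24.8% of all genes were called. Liver RNA and expression by brown fat cannot be told apart in these counts. In iWAT 0 of 15 and 0 of 6 were called.

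Among cell type markers, 5 of 5 erythrocyte markers, 2 of 13 macrophage and 2 of 10 stromal markers fell in LFABP-/- iWAT, and 0 adipocyte, brown adipocyte, endothelial or epithelial markers were called there. Over all genes, 1.45% were called in iWAT, and 22.3% rose and 25.5% fell in iBAT. In LFABP-/- iBAT, 4 of 9 brown adipocyte markers rose and 2 fell, with Ucp1 at 4794 ± 612 and 6745 ± 645. Of 10 adipocyte markers 1 rose and 3 fell, 5 of 10 endothelial, 3 of 9 stromal and 1 of 9 macrophage markers fell, and 0 of 5 erythrocyte markers were called. Of 10 epithelial markers only 2 could be tested, and these 2 rose. The whole epithelial list summed to 0.1 to 1.4 in WT and 1.3 to 8.6 in LFABP-/- iBAT. The 2 thus passed the filter on low values only through the LFABP-/- group. With the hepatocyte covariate 0 of the 2 were called.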
